A study of Mus musculus with 8 samples.

Results

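Corin and Kitl are the mouse genes of a membrane serine protease and of the ligand of the receptor Kit, both tied to the KitW-sh genotype, and their probes were taken from the deposited beadchip intensities by gene annotation. These are 2 of 16593 named genes, read by 3 probes (1 for Corin and 2 for Kitl) of 25697 in all. RNA of 8 mouse prostate samples on the C57Bl/6 background had been hybridised, 1 array each. The KitW-sh group was a single tumour from a TRAMP mouse that also carried KitW-sh, taken at 24 weeks of age. The cromolyn group was 3 tumours of TRAMP mice given sodium cromoglycate (cromolyn, a stabiliser of mast cells) from 8 to 24 weeks of age. The untreated TRAMP group was 2 tumours, and the wild-type group was 2 prostates free of tumour, all 4 taken at 30 weeks. All 3 tumour groups carry the TRAMP transgene, in which a probasin promoter drives viral T antigen in the epithelium of the prostate. The 24-week tumours were thus set against untreated tumours that were older, and age and group cannot be told apart. The labels do not tie replicates to different mice, so a p-value here reflects only how far these samples lie apart, which may be technical spread, and the number of arrays limits its precision.

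Kitl encodes Kit ligand (stem cell factor), which is made as a membrane protein, can be shed by proteases, and binds the receptor tyrosine kinase Kit. Kit signalling is needed by mast cells, melanocytes, germ cells, blood progenitors and the interstitial cells of Cajal. KitW-sh is a regulatory allele: a large inversion with one end upstream of Kit and the other in Corin, which leaves the coding part of Kit intact and removes most mast cells of the adult. Corin encodes a type II transmembrane serine protease that activates the precursor of atrial natriuretic peptide in the heart and limits agouti signalling in hair follicles. Kitl lies on another chromosome and is not part of the rearrangement. Kit itself was not analysed here.

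The 250 bases before each start site are shown because one end of the rearrangement lies at Corin, while the start of Kitl is untouched by it. They come from RefSeq (GRCm38.p6), in which both genes were found, and run 5′ to 3′ on the strand of the gene. The Corin window is chr5:72504541-72504790 on the minus strand and the Kitl window is chr10:100015571-100015820 on the plus strand. Capitals mark TATA boxes (TATAAA) and GC boxes (GGGCGG), searched on both strands.
Corin: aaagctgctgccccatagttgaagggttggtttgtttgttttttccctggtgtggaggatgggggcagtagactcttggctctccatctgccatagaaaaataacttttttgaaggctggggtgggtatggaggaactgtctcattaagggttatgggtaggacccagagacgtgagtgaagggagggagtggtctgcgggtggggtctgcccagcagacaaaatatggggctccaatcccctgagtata
Kitl: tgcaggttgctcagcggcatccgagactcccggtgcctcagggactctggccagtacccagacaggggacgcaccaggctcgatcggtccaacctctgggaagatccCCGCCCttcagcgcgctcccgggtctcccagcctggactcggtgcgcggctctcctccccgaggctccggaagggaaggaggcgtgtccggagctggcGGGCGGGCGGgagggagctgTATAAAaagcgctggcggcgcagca
The windows are unlike in composition. GC content was 51.2% with 2 CpG in the Corin window and 69.2% with 23 CpG in the Kitl window, beside medians of 52.4% and 6 CpG over 32851 mouse promoters. The Kitl window held a TATAAA from 25 to 20 bases before the start and 3 GC boxes. A pair of these GC boxes overlap each other, at 45 to 40 and 41 to 36 bases before the start, and the other, on the opposite strand, lies at 143 to 138 bases. None of these letters was found in the Corin window, nor was the E-box CAGCTG, searched in the same way, in either window. TATAAA was present in 12.37%, GGGCGG in 32.74% and CAGCTG in 13% of all promoters of this length. These matches describe the letters of the windows only.

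Levels below are the deposited intensity (linear brightness of a probe) or, after background correction and quantile normalization, its log2. A probe was above background where its intensity exceeded 216 (7.01 on the log2 scale), and 14527 to 14548 probes did so on each array. Differences are log2 differences ± SE from limma, fitted to 13063 features (genes or unnamed probes) over all 8 arrays, with p-values adjusted by Benjamini and Hochberg within each comparison and called at an adjusted p under 0.05. For a group with all its arrays below background, the fold is a bound ("at least"), taken against the lowest level above background. The 24-week arrays correlated at 0.931 to 0.975 with each other and at 0.713 to 0.825 with the 30-week arrays across features. Comparisons that share an untreated or a wild-type pair are not independent of each other. How many of all features part the groups or the ages without overlap was not counted, so such a parting below is a description only.

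Corin was below background in the KitW-sh tumour and above it on the other 7 arrays. Its intensity was 184 in the KitW-sh tumour. The cromolyn tumours read 6126, 825 and 671, the untreated TRAMP tumours 618 and 605, and the wild-type prostates 418 and 411. The KitW-sh value lay under all others, as it did in 9.29% of all features, and no 2 groups overlapped. The first cromolyn tumour stood far above the other two, while the untreated and wild-type pairs were each tight.

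**Figure D1:**
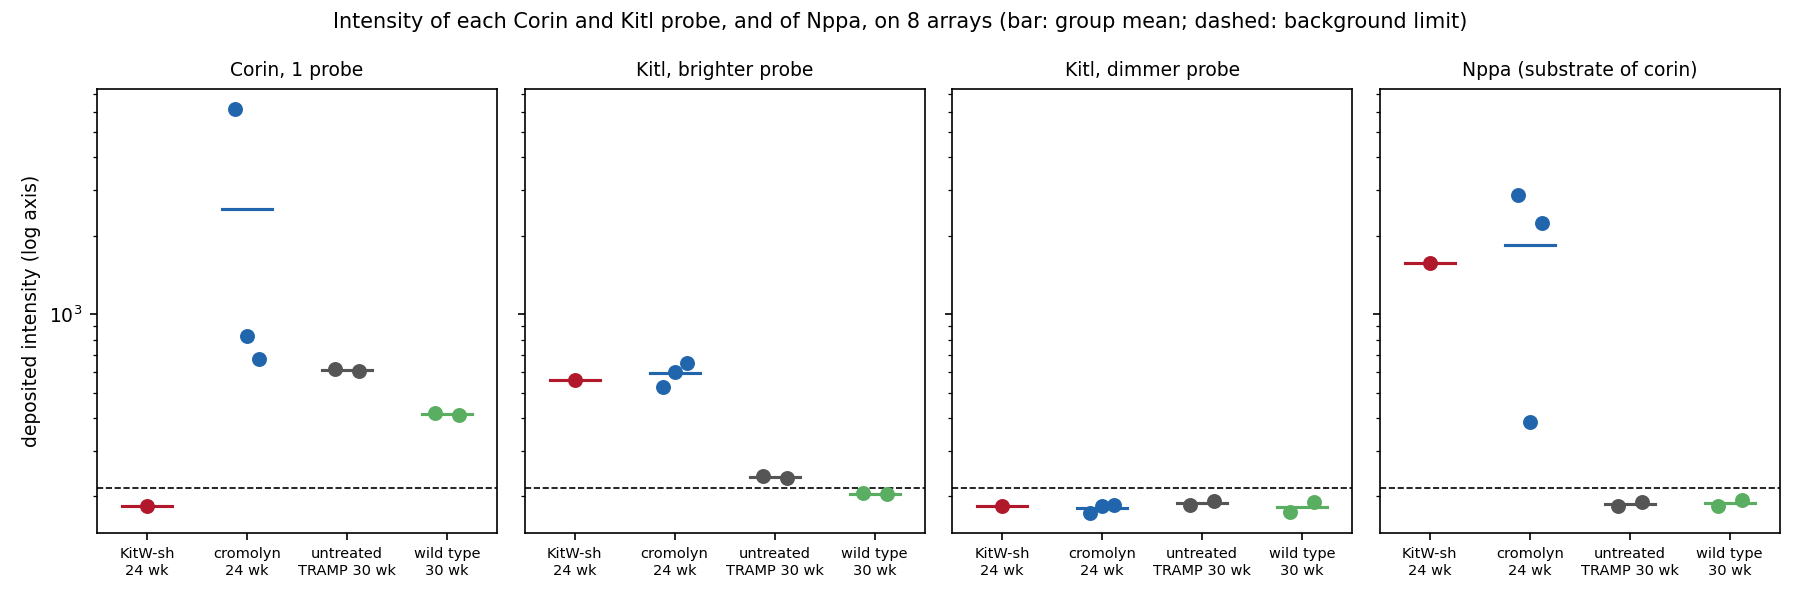
Deposited intensity (log axis) of the Corin probe, both Kitl probes and Nppa on each array, with points for arrays, bars for group means and a dashed line for the background limit of 216. Corin is under the line only in the KitW-sh tumour (184), and the brighter Kitl probe is at 528 to 653 in the cromolyn tumours and 562 in the KitW-sh tumour, against 204 to 240 at 30 weeks.

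On the log2 scale the Corin level was 6.58 in the KitW-sh tumour (n = 1), 10.42 ± 1.86 with cromolyn (SD, n = 3), 9.03 ± 0.03 in untreated TRAMP and 8.35 ± 0.02 in wild type (SD, n = 2 each). The KitW-sh level was at least 4.07-fold lower than untreated TRAMP (-2.45 ± 1.26), but this did not pass (limma adjusted p = 0.220). Over all features 22.6% were called in that comparison, 11.4% higher and 11.2% lower. Against cromolyn it was at least 10.7-fold lower (-3.84 ± 1.19, limma adjusted p = 0.804), where 0.0230% of features (3 of 13063) were called. Against wild type it was at least 2.54-fold lower (-1.77 ± 1.26, limma adjusted p = 0.336), where 31.1% were called.

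The spread that entered these tests came mostly from the cromolyn group. The residual SD of Corin was 1.31 on the log2 scale, against a median of 0.25 over all features, and 1.58% of features had a larger one. Without the first cromolyn tumour the limma adjusted p was 0.00238 for the KitW-sh tumour against untreated TRAMP, 0.00418 against wild type and 0.0805 against cromolyn, where the difference was then -2.77. The gap to the other arrays does not use that spread: Corin in the KitW-sh tumour was 1.75 (log2) below the lowest of the other 7 arrays. That reading is below background, so the size and rank of the gap are approximate. The KitW-sh array was lowest of the 8 in 9.29% of features and lowest by more than 1 in 0.168% (22 features), and 3 features lay further below than Corin. These were Hoxd10, Ccng2 and Fgf13, named after their values were seen. Fgf13 and Corin were nearly level (1.756 and 1.754). Hoxd10, a homeobox gene of posterior identity, read 223 against 780 or more elsewhere.

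Corin did not separate cromolyn from untreated TRAMP tumours by the test. The difference was 1.39 ± 0.94 (limma adjusted p = 0.297, 95% interval -0.86 to 3.65), where 36.9% of features were called, 18.9% higher and 18.1% lower. Without the first cromolyn tumour it was 0.32 (limma adjusted p = 0.236). Against wild type the cromolyn tumours were 2.07 ± 0.94 higher (limma adjusted p = 0.118), where 45.8% of features were called, and without that tumour the difference was 1.00 and passed (limma adjusted p = 0.00883). Untreated TRAMP differed from wild type by 0.68 ± 1.03 (limma adjusted p = 0.778), where 6.61% were called. The order of the levels was cromolyn, untreated TRAMP, wild type and KitW-sh, and no neighbours in that order differed beyond the pooled spread.

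Kitl was higher in all 24-week tumours than in any 30-week sample. The brighter of its probes read 562 in the KitW-sh tumour, 528, 602 and 653 with cromolyn, 240 and 235 in untreated TRAMP, and 206 and 204 in wild type. The KitW-sh value lay inside the cromolyn range, the 24-week and 30-week arrays were far apart, and the wild-type pair was below background. On the log2 scale these were 8.89 in KitW-sh, 8.98 ± 0.18 with cromolyn (SD, n = 3), 7.23 ± 0.03 in untreated TRAMP and 6.87 ± 0.01 in wild type (SD, n = 2 each). The spread was small, with a residual SD of 0.13.

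Kitl rose 3.16-fold in the KitW-sh tumour against untreated TRAMP (1.66 ± 0.23, limma adjusted p = 0.00410), where 22.6% of all features passed as well. With cromolyn it rose 3.36-fold (1.75 ± 0.17, limma adjusted p = 0.000483). The deposited intensities, from which background was not subtracted, give ratios of 2.36 and 2.50. Against wild type the rise was at least 3.69-fold in the KitW-sh tumour (limma adjusted p = 0.00134) and at least 3.91-fold with cromolyn (limma adjusted p = 0.000172). A larger difference was seen in 14.5% of features for KitW-sh and 14.7% for cromolyn against untreated TRAMP, so Kitl was not among the extremes.

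The KitW-sh and cromolyn tumours did not differ in Kitl by the test (-0.09 ± 0.21, limma adjusted p = 1.00), and the 95% interval of the difference ran from -0.59 to 0.42. Untreated TRAMP was at least 1.17-fold above wild type (0.36 ± 0.18, limma adjusted p = 0.330). In the order cromolyn, KitW-sh, untreated TRAMP and wild type, only the step between the KitW-sh and the untreated TRAMP tumours passed. The second Kitl probe read 173 to 192 on all arrays, below background throughout, and was not tested. It can neither bear out nor contradict the first. Which transcripts each probe reads is not given in the sources used here.

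The Kitl difference ran along with a broad difference in cell type markers, in comparisons where 22.6% (KitW-sh) and 36.9% (cromolyn) of all features were called. Of 7 neuroendocrine markers tested, 6 rose in the KitW-sh tumour and 6 with cromolyn against untreated TRAMP, among them Insm1, a transcription factor of neuroendocrine cells, at least 181-fold in KitW-sh and at least 96.1-fold with cromolyn. Their summed intensity was 57066 in the KitW-sh tumour and 46725 to 53811 with cromolyn, against 1379 to 1384 in untreated TRAMP. Of 7 epithelial markers, 4 fell in the KitW-sh tumour and 6 with cromolyn, and the sum was 4491 in KitW-sh and 1347 to 3532 with cromolyn, against 68890 to 77738 in untreated TRAMP. The epithelial keratin Krt18 was below background in 2 cromolyn tumours. Of 8 smooth muscle markers, 7 fell in KitW-sh and 8 with cromolyn, with sums of 16560 and 5005 to 10940, against 116651 to 147445. Of 9 fibroblast and mesenchymal markers, 1 fell in KitW-sh and 5 with cromolyn. The sum of those 9 was 36000 in KitW-sh and 11598 to 21909 with cromolyn, against 44562 to 53603 in untreated TRAMP. Of 10 endothelial markers none was called in either comparison by limma. None had an unadjusted limma p under 0.05, beside 35.7% (KitW-sh) and 46.2% (cromolyn) of all features. The part of these shifts in the Kitl and Corin values was not tested, and in bulk tissue fewer cells of a type and less RNA per cell cannot be told apart.

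Of 8 tested markers of mast cells, the Kit-dependent cells that KitW-sh removes, 1 fell in the KitW-sh tumour and 3 with cromolyn. This is 12.5% and 37.5% of those tested, beside 11.2% and 18.1% of all features called lower (22.6% and 36.9% in either direction). The median difference was -0.67 and -0.71, or -0.23 and -0.41 where groups below background enter as bounds. Hdc, the histidine decarboxylase gene, lay the other way in KitW-sh without passing: it read 601 in KitW-sh and 267, 327 and 266 with cromolyn, against 467 and 298 in untreated TRAMP. Their summed intensity, most of it from Gata2, was 9548 in KitW-sh and 4080 to 10180 with cromolyn, against 22670 to 26146 in untreated TRAMP. Cpa3, a granule carboxypeptidase, read 177 in KitW-sh and 176, 186 and 200 with cromolyn, against 462 and 315 in untreated TRAMP, and no 24-week tumour was above background. It was at least 2.27-fold lower in KitW-sh (limma adjusted p = 0.0269) and at least 2.26-fold lower with cromolyn (limma adjusted p = 0.00800). Without the first untreated tumour these adjusted p values were 0.113 and 0.0671. Mcpt4, a chymase, read 171 in KitW-sh and 155, 155 and 173 with cromolyn, against 368 and 240 in untreated TRAMP, and passed with cromolyn (at least 1.61-fold lower, limma adjusted p = 0.0147, or 0.109 without the first untreated tumour). Gata2, a transcription factor of mast and other cells, read 7877 in KitW-sh and 7094, 2663 and 8794 with cromolyn, against 23846 and 21007, and fell with cromolyn (-2.05 ± 0.49, limma adjusted p = 0.0181, and up to 0.107 without either untreated array).

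The genes that act on Kit or below it gave few calls of their own. The list held 27 genes, of which 25 had a probe and 21 were tested. In the KitW-sh tumour against untreated TRAMP, Kitl rose and Plcg2 fell, which is 9.52% of the list beside 22.6% of all features. With cromolyn Kitl rose and 5 genes fell, 28.6% of the list beside 36.9%. The median difference over the list was -0.04 for KitW-sh and 0.01 for cromolyn, beside 0.01 and 0.05 over all features. Against cromolyn, the KitW-sh tumour had no call by limma. At an unadjusted limma p under 0.05 it had 1 of the 21, beside 5.43% of all features.

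Plcg2, a phospholipase used mainly in blood cells, read 557 in the KitW-sh tumour and 320, 426 and 409 with cromolyn, against 1254 and 1207 in untreated TRAMP. It fell by 1.28 ± 0.28 in KitW-sh (limma adjusted p = 0.0213, and up to 0.102 without either untreated array) and fell by 1.96 ± 0.21 with cromolyn (limma adjusted p = 0.000745). Ptpn6, the phosphatase SHP-1 that damps Kit signalling, read 775 in KitW-sh and 317, 594 and 543 with cromolyn, against 2161 and 2084. It fell by 2.44 ± 0.37 with cromolyn (limma adjusted p = 0.00287), and its difference in KitW-sh was -1.57 ± 0.49 (limma adjusted p = 0.0643). Both genes were lower in every 24-week tumour than in any 30-week sample.

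The other calls with cromolyn were the adaptor gene Shc1 (-0.88 ± 0.23), the PI3-kinase regulatory subunit gene Pik3r1 (-0.70 ± 0.18) and the kinase gene Jak2 (-1.65 ± 0.48). Their limma adjusted p values were 0.0245, 0.0218 and 0.0342. None of these calls held without either untreated array, where the adjusted p reached 0.148, 0.134 and 0.154, and those of Pik3r1 and Jak2 were also lost without the third cromolyn tumour. Jak2 was lost without either wild-type array too. The adaptors Grb2 and Sos1, the phosphatase Ptpn11, the catalytic subunit Pik3ca and the ubiquitin ligase Cbl passed in neither comparison.

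**Figure D2:**
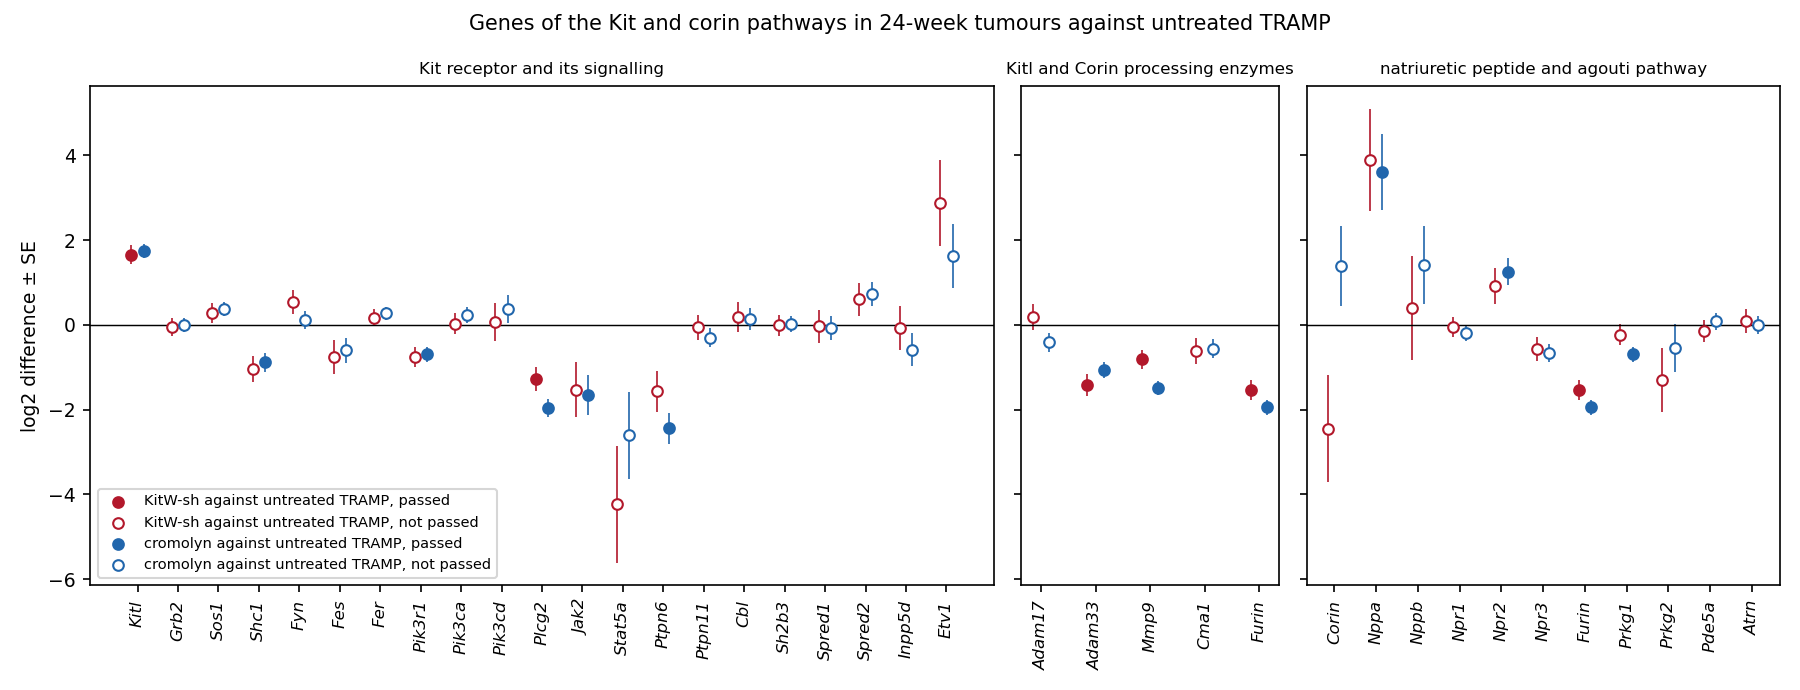
Log2 difference ± SE against untreated TRAMP for the tested genes of 3 lists, with red for the KitW-sh tumour, blue for the cromolyn tumours and filled points for an adjusted p under 0.05. Kitl is the only filled point above 0 in the Kit list, at 1.66 and 1.75, and Corin lies at -2.45 and 1.39 with neither filled.

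A list of enzymes that release Kit ligand from the membrane or process precursors held 7 genes, of which 5 were tested. Pcsk6 of this list had no probe. Mmp9 of the list is a gelatinase that frees Kit ligand in mouse bone marrow. Of the 5 tested, 3 fell in both comparisons: Furin, a proprotein convertase, Mmp9, and Adam33, a metalloprotease. This is 60.0% of those tested, beside 11.2% of all features lower in the KitW-sh tumour and 18.1% with cromolyn. The median difference was -0.81 and -1.07, or -0.38 and -0.41 where groups below background enter as bounds. Furin read 4849 in the KitW-sh tumour and 3949, 4052 and 3162 with cromolyn, against 13772 and 14140 in untreated TRAMP. It fell by 1.54 ± 0.24 in KitW-sh (limma adjusted p = 0.00673) and fell by 1.94 ± 0.18 with cromolyn (limma adjusted p = 0.000425). Wild type read 13423 and 15269, so every 24-week value lay below every 30-week value. Mmp9 fell by 0.81 ± 0.22 in KitW-sh (limma adjusted p = 0.0434) and fell by 1.49 ± 0.17 with cromolyn (limma adjusted p = 0.000860). The KitW-sh call of Mmp9 was lost without any 1 of 6 other arrays (adjusted p up to 0.198), the exception being the second cromolyn tumour. Adam33 was below background in all 24-week tumours and at least 1.30-fold lower in each comparison (limma adjusted p = 0.0118 and 0.00622), with calls lost without the second untreated array (up to 0.0691 and 0.0606) and, in KitW-sh, also without the first. Adam17, a main sheddase of Kit ligand, passed in neither (0.19 ± 0.30 in KitW-sh and -0.41 ± 0.23 with cromolyn).

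Nppa, which encodes the peptide precursor that corin activates, was above background only in the 24-week tumours. It read 1575 in the KitW-sh tumour and 2882, 387 and 2242 with cromolyn, against 185 and 190 in untreated TRAMP and 183 and 194 in wild type. The KitW-sh tumour, with Corin below background, thus had Nppa within the cromolyn range, and the second cromolyn tumour was the lowest of the 4. Nppa was at least 11.5-fold higher in KitW-sh than in untreated TRAMP without passing (limma adjusted p = 0.0615), and at least 9.45-fold higher with cromolyn (limma adjusted p = 0.0203). That call was lost without either untreated array or the third cromolyn tumour (adjusted p up to 0.104). KitW-sh and cromolyn differed by 0.29 ± 1.13 (limma adjusted p = 1.00).

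Of the 11 tested genes of the natriuretic peptide and agouti pathway, 1 fell in the KitW-sh tumour (Furin), and with cromolyn 2 rose and 2 fell against untreated TRAMP. These shares, 9.09% and 36.4%, were not above the 22.6% and 36.9% of all features, and the median difference was -0.14 and 0.00. Npr2, the receptor of C-type natriuretic peptide, read 939 in KitW-sh and 880, 1670 and 1072 with cromolyn, against 551 and 523 in untreated TRAMP and 822 and 1082 in wild type. It rose by 1.26 ± 0.31 with cromolyn against untreated TRAMP (limma adjusted p = 0.0205, and up to 0.116 without either untreated array), while the cromolyn and wild-type values overlapped. Prkg1, a cyclic GMP-dependent kinase, fell by 0.69 ± 0.18 with cromolyn (limma adjusted p = 0.0253). Its call was lost without either untreated array and without the first or the third cromolyn tumour (up to 0.160). Npr1, the receptor of atrial natriuretic peptide, read 212 in KitW-sh and 189 to 216 with cromolyn, against 215 and 218 in untreated TRAMP, all close to background. The agouti gene and its receptor gene Mc1r were below background on all arrays and were not tested.

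Of 9 genes tested out of 17 in the protease family of Corin, 3 fell in the KitW-sh tumour and 4 with cromolyn against untreated TRAMP, and none rose. This is 33.3% and 44.4% of those tested, beside 11.2% and 18.1% of all features called lower (22.6% and 36.9% in either direction). The median difference was -1.87 and -0.41, beside 0.01 and 0.05 over all features. Where groups below background enter as bounds, it was -1.87 and -0.03. The others did not pass. Tmprss7 read 264 in KitW-sh and 342, 354 and 296 with cromolyn, against 293 and 309 in untreated TRAMP, and Tmprss5 and Tmprss11a stayed near background on all arrays. St14, which encodes the epithelial protease matriptase, read 270 in KitW-sh and 185, 200 and 228 with cromolyn, against 3744 and 3770 in untreated TRAMP. It fell by 4.33 ± 0.26 in KitW-sh (limma adjusted p = 0.000325) and fell by 4.99 ± 0.20 with cromolyn (limma adjusted p = 2.78e-05). Tmprss2, an androgen-responsive protease gene of prostate epithelium, fell by 6.37 ± 0.76 with cromolyn (limma adjusted p = 0.00115) and fell by 3.93 ± 1.03 in KitW-sh (limma adjusted p = 0.0367). The KitW-sh call of Tmprss2 was lost without either untreated or either wild-type array (up to 0.141). Tmprss13 fell by 3.99 ± 0.69 in KitW-sh (limma adjusted p = 0.00963) and fell by 5.22 ± 0.52 with cromolyn (limma adjusted p = 0.000542). Tmprss4 was at least 4.01-fold lower with cromolyn (limma adjusted p = 0.00732, or 0.0575 without the second untreated array). St14 and Tmprss13 fell in both groups while the Corin values went apart, to 184 in KitW-sh and 671 or more with cromolyn. These proteases moved beside the epithelial markers given above, whose part was not tested.

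The stretch of chromosome from Corin to Kit holds 65 genes in the RefSeq table, of which 22 had a probe and 19 were tested. Against cromolyn the KitW-sh tumour had no called gene there by limma. At an unadjusted limma p under 0.05 it had 6, Corin among them, beside 5.43% of all features. It was lowest of the 8 arrays in 4 genes (Corin, Slain2, Ociad1 and Ociad2, a count made after the values were seen), which is 21.1% beside 9.29% of all features. In Corin alone was it lowest by more than 1 on the log2 scale. Among 16 tested genes within 3000 kb outside the stretch it was lowest in 3 (18.8%), close to the share in the stretch. Corin itself is 1 of the 4 genes counted in the stretch.

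Ociad1, which encodes a mitochondrial and endosomal protein, read 8527 in the KitW-sh tumour and 19009, 13772 and 20053 with cromolyn, against 17169 and 14419 in untreated TRAMP. Its differences of -1.03 ± 0.29 from cromolyn and -0.89 ± 0.31 from untreated TRAMP did not pass (limma adjusted p = 0.716 and 0.0841). Ociad2, its paralog, was below background in KitW-sh at 202, against 246 to 440 with cromolyn and 383 to 688 in untreated TRAMP, and did not pass either (limma adjusted p = 0.995 and 0.0992). Slain2, a microtubule-associated gene, read 1394 in KitW-sh, against 2159 to 3024 with cromolyn and 1437 and 1628 in untreated TRAMP. Pdgfra, the receptor gene next to Kit, read 3029 in KitW-sh, inside the range of 669 to 3179 with cromolyn, against 2222 and 2218 in untreated TRAMP (0.46 ± 0.85, limma adjusted p = 0.765).

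Against untreated TRAMP, a few other genes of the stretch were called, at about the rate of all features. Sgcb, a sarcoglycan gene, read 1970 in the KitW-sh tumour and 4680, 3478 and 5060 with cromolyn, against 929 and 846 in untreated TRAMP. It rose by 1.24 ± 0.28 in KitW-sh (limma adjusted p = 0.0225, and up to 0.110 without either untreated array) and rose by 2.42 ± 0.21 with cromolyn (limma adjusted p = 0.000312). Tec, a kinase gene of blood cells that Kit can activate, read 243 in KitW-sh and 230, 308 and 262 with cromolyn, against 769 and 872. It fell by 2.23 ± 0.29 in KitW-sh (limma adjusted p = 0.00356) and fell by 2.05 ± 0.22 with cromolyn (limma adjusted p = 0.000714). Slc10a4l rose and Cwh43 fell in both as well, and with cromolyn Slain2 rose and Fryl fell, which makes 4 of 19 called for KitW-sh and 6 of 19 for cromolyn. These shares, 21.1% and 31.6%, were not above the 22.6% and 36.9% of all features, and the median difference was -0.18 and 0.03. The KitW-sh call of Slc10a4l was lost without either untreated array (limma adjusted p up to 0.0788). That of Cwh43 was lost without the second untreated array or either wild-type array (up to 0.0625). Those of Slain2 and Fryl were lost without either untreated array or the third cromolyn tumour (up to 0.184 and 0.128).

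**Figure D3:**
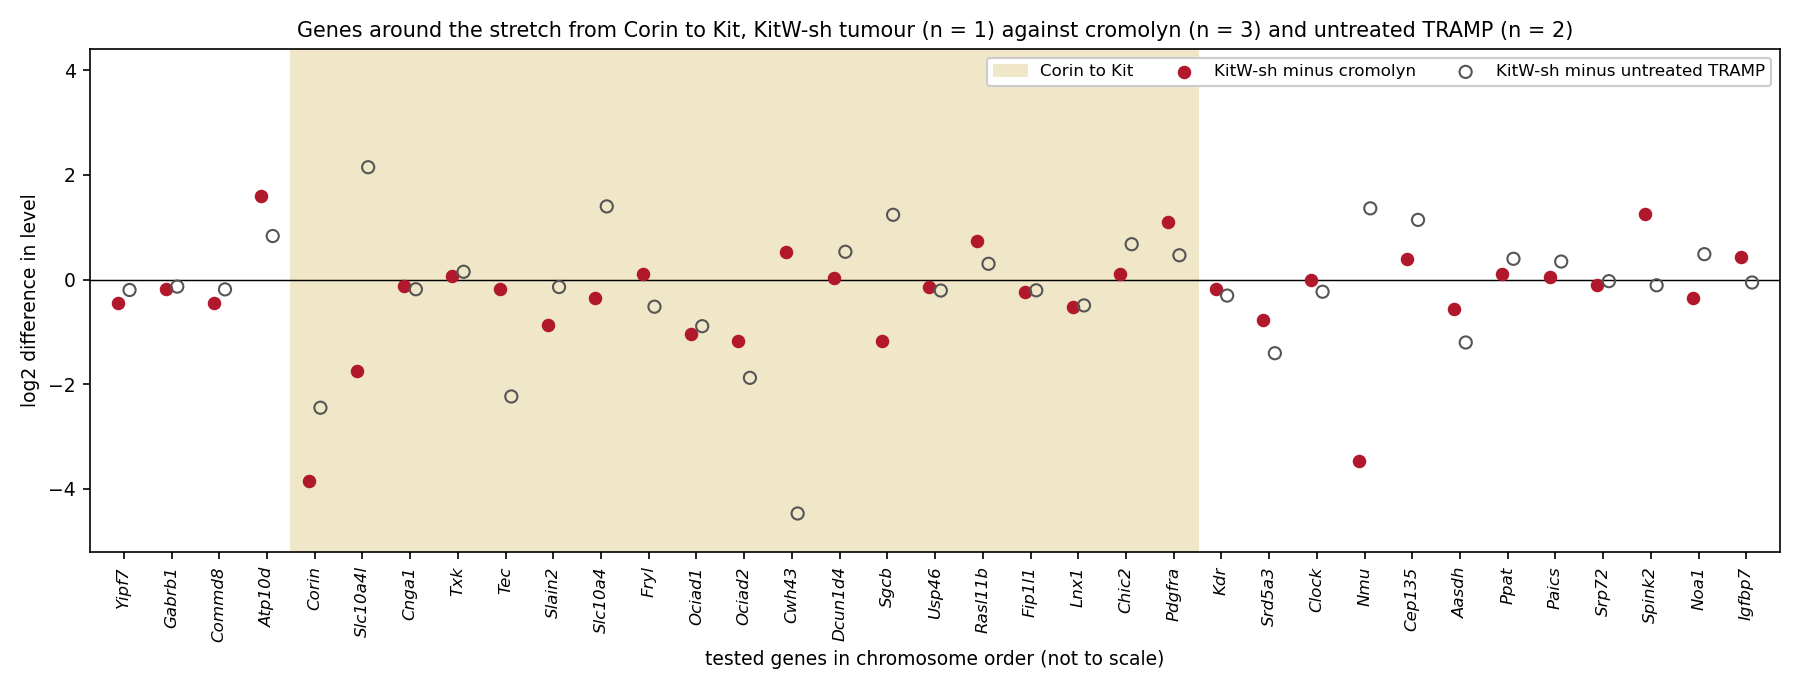
Log2 difference in level of the KitW-sh tumour (n = 1) from the cromolyn tumours (filled red) and from untreated TRAMP (open grey), for tested genes in chromosome order, with the Corin to Kit stretch shaded and the spacing not to scale. Corin lies at -3.84 and -2.45, Pdgfra at the other end of the stretch is at 1.09 and 0.46.

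The genes whose levels followed each member most closely were found by Pearson's r over the 8 arrays, as a description. Corin was followed by Zfp217 (0.964), Foxc1 (0.964), Csn2 (0.951), Sox2 (0.946) and Elmo1 (0.945). In each of the 5, as in Corin, the first cromolyn tumour was the highest array and the KitW-sh tumour the lowest. They were picked for likeness to Corin, so these shared extremes follow from the choice. Zfp217, Csn2 and Sox2 were below background in the KitW-sh tumour, and Csn2 was above it only in the first cromolyn tumour. Foxc1, a forkhead transcription factor gene, read 303 in the KitW-sh tumour and 3809, 1124 and 1024 with cromolyn, against 517 to 625 in untreated TRAMP and 552 to 568 in wild type. Sox2, a transcription factor gene of stem and neural cells, read 201 in KitW-sh and 1335, 289 and 417 with cromolyn, against 320 to 338 in untreated TRAMP. Zfp217 and Csn2 stayed near background, between 200 and 246 and between 156 and 249.

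Kitl was followed by Rnf126 (r = 0.999), Smarce1 (0.996), Lonrf2 (0.996), Anp32e (0.996) and Zfp428 (0.995). These, picked for likeness to Kitl, parted the 24-week from the 30-week arrays as Kitl did. Rnf126, a ubiquitin ligase gene, read 2605 in the KitW-sh tumour and 2639, 2732 and 2921 with cromolyn, against 1278 and 1202 in untreated TRAMP and 1050 and 1044 in wild type. Smarce1, a gene of the SWI/SNF chromatin remodelling complex, read 10268 in KitW-sh and 7534 to 10438 with cromolyn, against 2607 to 2696 in untreated TRAMP. The 8 points of each r share the split of the arrays by age given above.

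**Figure D4:**
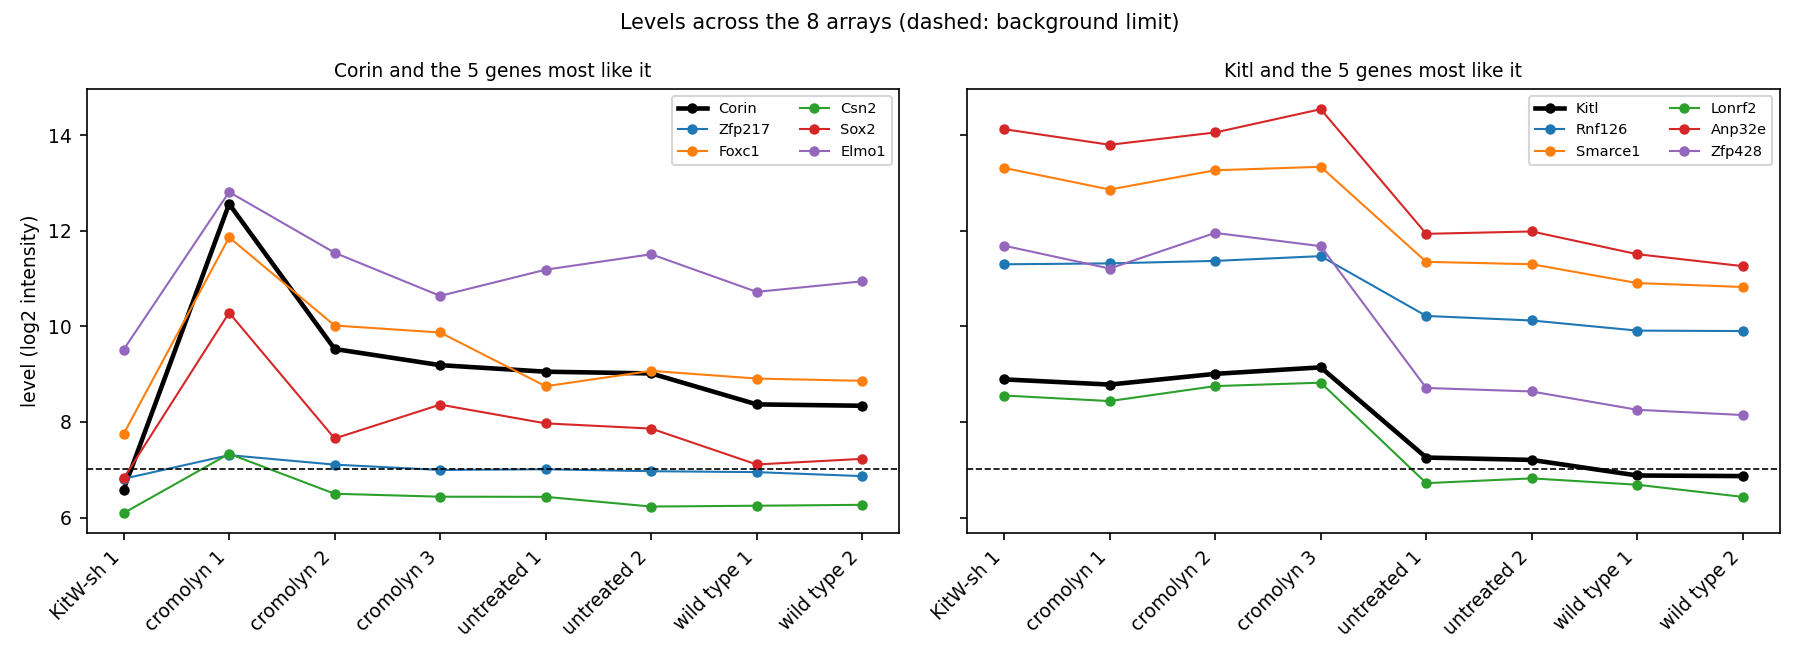
Level (log2 intensity) on each array, KitW-sh at the left and wild type at the right, for Corin (left panel, black) and Kitl (right panel, black) with the 5 genes most like each, and a dashed line at the background limit of 7.01. The Corin set peaks in cromolyn tumour 1 (Corin 12.56) and is lowest in KitW-sh for Corin (6.58), and the Kitl set drops between the 24-week and the 30-week arrays.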

How the data were processed

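RNA of 8 prostate samples was measured on Illumina beadchips, and the deposited intensity of 25697 probes, on a linear scale, was used. Per the submitters' processing notes the authors used BeadStudio, without a version. When sorted, the deposited intensities of the 8 arrays were nearly equal (largest gap 0.0489, log2), as quantile normalization leaves them, and none was below 124, as is the case before background subtraction. The 8 signal columns of another table carry slide positions that match no sample label, and were not used here.

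Intensities were corrected with normexp (offset 50), quantile normalized and put on the log2 scale in limma 3.58.1 (R 4.3.3). The limit of 216 was set where 0.01 of a background with mode 181 and SD 15.2 would lie above it. Probes above it on at least 1 array (18053) were kept, with the brightest of each gene, which left 13063 features. One mean per group was fitted over 8 arrays, with 4 residual and 2.62 prior degrees of freedom, which takes the spread of the single KitW-sh array to equal that of the other groups. Tests are two-sided. Bounds in fold use the lowest level above the limit on each array of the dim group, or the probe's own level if higher. Only the limma fit was tested on simulated data, built from the normalized and filtered values. Background correction, normalization, the filter and the bounds were not tested in that way. Gene names were updated through a RefSeq table (GRCm38.p6), in which 23962 of 23978 annotated probes were found.

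The members, gene lists and tests were chosen with earlier results of these data known. Named genes are the members, Nppa, up to 4 called genes per list and direction with the smallest p, genes of the Corin to Kit stretch where the KitW-sh array lay more than 1 (log2) outside the others, and the 5 genes most like each member. Others are said to have been named after their values were seen. Slain2, Ociad1, Ociad2, Pdgfra, Adam17, Npr1, Hdc, Tmprss7, Etv1 and the uncalled adaptors were also named in that way. Alternatives were the deposited values without further correction, offset 16, cyclic loess, other filters, all probes, only the 2 groups compared, an intensity trend, a replicate block and leaving out each array.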

Additional observations from a re-analysis of the deposited data

How the results depend on the processing

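The Kitl calls (KitW-sh and cromolyn, each against untreated TRAMP and against wild type) held in all 16 alternatives, with limma adjusted p up to 0.0332 for KitW-sh and 0.00925 for cromolyn against untreated TRAMP. Corin was called in none of its 6 comparisons as fitted, and its calls depend on the first cromolyn tumour. With only the 2 groups compared it passed for KitW-sh against untreated TRAMP (-2.45), KitW-sh against wild type (-1.77) and untreated TRAMP against wild type (0.68, limma adjusted p = 0.0495). For KitW-sh, Corin's own spread in these fits came from a single tight pair of arrays, so the passes carry little weight. Leaving out each array in turn gave -2.47 to -2.43 for KitW-sh against untreated TRAMP and -1.78 to -1.75 against wild type. For cromolyn against wild type it gave 1.00 to 2.69. Each of these passed only without the first cromolyn tumour. Replicate numbers are shared between groups, and deviations of same-numbered arrays correlated at 0.00206 to 0.0743. With so few arrays per group, these values cannot tell whether same-numbered arrays share more than a number. With the replicate block the share of features called for KitW-sh against untreated TRAMP was 14.3% in place of 22.6%, and for untreated TRAMP against wild type 3.20% in place of 6.61%. The block also turned the Kitl difference of KitW-sh from cromolyn to 0.0231 (adjusted p = 0.995), and it changed no other direction or call of Corin or Kitl. With only the 2 groups compared these shares were 47.5% and 11.2%. Without 1 array they ran from 9.23% to 29.5% and from 1.54% to 10.1%, for cromolyn against untreated TRAMP from 18.6% to 41.0%, and for KitW-sh against cromolyn from 0% to 0.237%. Among genes of the lists and of the likeness sets, the block ended 10 of 41 calls for KitW-sh and 11 of 62 for cromolyn against untreated TRAMP. Other settings ended the KitW-sh calls of Cpa3 (deposited intensity, adjusted p = 0.0523), Mmp9 (intensity trend, 0.0726) and Tmprss2 (offset 16, 0.0658) and the cromolyn call of Jak2 (only the 2 groups compared, 0.0588). The KitW-sh call of the smooth muscle gene Cnn1 was also lost with the deposited intensity, without the filter on dim probes and with an intensity trend. The cromolyn calls of Col1a1 (no filter on dim probes) and Synpo2 (deposited intensity) were lost too. Cnn1, Col1a1 and Synpo2 were named after their values were seen. Corin in KitW-sh and Kitl in wild type are limited by background, so their folds are bounds.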

Other observations

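Of 6 melanocyte marker genes with a probe, only Pmel, a melanosome protein gene, was above background on any array. It read 178 in the KitW-sh tumour and 196, 189 and 190 with cromolyn, against 337 and 306 in untreated TRAMP. It was at least 1.81-fold lower in KitW-sh (limma adjusted p = 0.00948, or 0.0635 without the first untreated array) and at least 1.81-fold lower with cromolyn (limma adjusted p = 0.00291). Of 3 tested markers of interstitial cells of Cajal, 1 fell in each comparison with untreated TRAMP and none rose. This is 33.3% of those tested, beside 11.2% (KitW-sh) and 18.1% (cromolyn) of all features called lower, and rests on 1 gene. The median differences were -0.24 in KitW-sh and -0.98 with cromolyn. Ano1, a chloride channel gene that marks interstitial cells of Cajal and is also made by epithelia, read 360 in KitW-sh and 190, 198 and 280 with cromolyn, against 1291 and 1892. It fell by 2.44 ± 0.45 in KitW-sh (limma adjusted p = 0.0120, or 0.0630 without the second untreated array) and fell by 3.51 ± 0.34 with cromolyn (limma adjusted p = 0.000483). Etv1, a transcription factor gene of the same list, lay the other way without passing: it read 1582 in KitW-sh and 1139, 295 and 1206 with cromolyn, against 239 and 361 in untreated TRAMP (limma adjusted p = 0.0898 and 0.144). The gap junction gene Gja1 passed in neither comparison.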
